A study of Homo sapiens with 8 samples.

Results

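The guides described here target 23 human genes. All but VPS72 build, load or acidify the compartments of the secretory and endolysosomal pathway. They were chosen by gene name, with the symbols of coat, translocation, V-ATPase, tethering, SNARE and sorting genes, and the naming rule uses no measured value. They number 1155 of the 46829 guides in the table, on 156 of its 6735 exon-exon junctions, and their genes are 23 of 1250. SEC24B, a cargo adaptor of the COPII coat, also matched by name, but its 3 guides belong to the non-essential control set and were left out, so no COPII coat gene is included. The name pattern also took VPS72, which despite its symbol is a chromatin protein that handles the histone variant H2A.Z. Its own values are given apart, but it is kept in all member counts, shares and medians.

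The cells were A375, an established human melanoma line, carrying RfxCas13d under a tetracycline-responsive promoter and a lentiviral guide pool. RfxCas13d is a CRISPR nuclease that cuts RNA, so a guide lowers a transcript and leaves the gene intact. All cells came from a clonal line, which limits the model to that clone. The 8 libraries, made by PCR from genomic DNA, covered Day 0, when the cells had no doxycycline, and Day 7, 14 and 21, when they were kept in 1 ug/ml doxycycline, with 2 replicates on each day. The labels number the replicates but do not say that they were separate cultures, so p-values measure only the spread between these samples. A negative log2 fold change means that a guide had become rarer than in the Day 0 library of the same replicate.

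Secretory and membrane proteins enter the endoplasmic reticulum through the signal recognition particle and the SEC61 channel. COPII vesicles carry them towards the Golgi, and the COPI coat, a heptameric complex recruited by the ARF GTPases, returns escaped residents and recycles Golgi enzymes. TRAPP, COG and USO1 tether vesicles to their target membrane, SNAREs such as YKT6 drive fusion, and NAPA helps to take spent SNARE complexes apart. The V-ATPase, a rotary proton pump with a cytosolic V1 and a membrane V0 sector, acidifies Golgi, endosomes and lysosomes. The ESCRT complexes sort membrane proteins into multivesicular bodies, and VPS4A, an ATPase, recycles the ESCRT filaments.

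Read depth was not given. After removal of a constant from each library, the fold changes were log2 ratios of whole numbers. This gives each guide an implied whole number per library, which bounds from below its count with any pseudocount included. The median implied Day 0 number of the member guides was 89 in replicate 1 and 121 in replicate 2, against 104 and 139 for the 963 non-targeting guides. By Day 21, 56 member guides (4.85%) in replicate 1 and 81 (7.01%) in replicate 2 had an implied number of 1, below which no loss can be seen. Of these, 44 and 70 belonged to COPA and COPB2. Counting error is not the only error here, since PCR reads without molecular identifiers are not independent molecules.

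COPB2 and COPA, of the COPI coat, had the lowest means of the 23 genes on all 3 days, and SEC61A1 and both measured V1 subunits of the V-ATPase were also lower by the end. At Day 21, 5 of the 23 genes were lower than at Day 0 (limma, Benjamini-Hochberg adjusted p under 0.05 over all 1223 genes tested). They were COPB2, COPA, SEC61A1, ATP6V1B2 and ATP6V1H. This is 21.7% of the member genes, against 20.8% of all genes tested and 28.2% of the 829 tested genes outside the control set, so the number of called genes does not set the members apart. The median of the 23 gene means was −0.49 on the log2 scale, against −0.28 over all genes tested and −0.43 over the genes outside the control set. All 23 gene means were below 0 at Day 21, and 20 were below 0 in both libraries. Means below 0 were common in the whole screen, at 75.5% of all genes tested and 84.9% of those outside the control set. Centring each library on the median of all its guides left 1 of the 5 calls, and the median over guides in place of the mean left 0 (limma, 3 genes at an unadjusted p under 0.05).

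At Day 7 a single member gene, COPB2, was lower, which is 4.35% of the members against 3.92% of all genes tested. At Day 14 there were 7 lower genes, 30.4% against 22.1%, which were the 5 named above with COG4 and TRAPPC8. No member gene was higher at Day 7, 14 or 21 (limma, 0 genes higher at an unadjusted p under 0.05 on any of these days), against 0.0818%, 0.736% and 0.654% of all genes tested. All 5 genes called at Day 21 were also called at Day 14, and 1 gene was called on all 3 days. Refitted with all days sharing the spread and either library of the tested day left out, the count was 0 at Day 7, 4 at Day 14 and 9 or 10 at Day 21. With all libraries kept, that shared-spread fit called 11 at Day 21, 10 at Day 14 and 0 at Day 7 (limma, 2 with an unadjusted p under 0.05). Over all genes tested it called 477 at Day 21, 398 at Day 14 and 0 at Day 7. With each day fitted alone those numbers were 254, 270 and 48, so the whole screen moved with the members at the later days. With the replicate number as a block and all days sharing the spread, 2 member genes were called lower at Day 7, 11 at Day 14 and 14 at Day 21, while 3.43%, 38.3% and 45.5% of all genes tested were called in the same fit. Set against each day fitted alone, this fit added COPA at Day 7 and SRP9, VPS28, VPS4A and VPS72 at Day 14. At Day 21 it added those 4 genes with COG4, TRAPPC8, TRAPPC4, SEC61G and ATP6V0D1. No call was lost with it. It changed 2 settings at once, so the gains are not the block's alone. Shared spread without a block already called COG4 (limma adjusted p 0.0120) and TRAPPC8 (0.00427) at Day 21. Earlier simulation on these data had found the fit over all days too liberal at Day 21. Below, the block stands for that fit as a whole, and without the block stands for each day fitted alone. Calls are those without the block unless it is named.

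The COPI coat was represented by COPA, which encodes alpha-COP, and COPB2, which encodes beta'-COP, both subunits of its outer cage. COPB2, on the minus strand of chromosome 3 (RefSeq span 139357406 to 139389680, GRCh38.p14), had 129 guides. Its mean log2 fold change was −0.87 in replicate 1 and −1.76 in replicate 2 at Day 7. It was −2.07 and −2.62 at Day 14, and −2.12 and −2.73 at Day 21. Every library was low, replicate 2 was the lower of each pair, and most of the loss was in place by Day 14. At Day 21 the mean was −2.43 ± 0.43 (SD, n = 2; SE 0.22), or 5.38-fold lower, with a limma adjusted p of 0.0128. At Day 7 it was −1.31 ± 0.63 (SD, n = 2), with a limma adjusted p of 0.0109. COPB2 had the lowest mean of the member genes at Day 21, at rank 56 of 1223. Its Day 21 call was lost when libraries were centred on all guides (limma adjusted p 0.0541) and when the median over guides was tested (0.0808).

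COPA, on the minus strand of chromosome 1 (RefSeq span 160288594 to 160343250, GRCh38.p14), had 210 guides, the most of any member. Its mean was −0.47 and −1.43 at Day 7, −2.09 and −2.25 at Day 14, and −2.19 and −2.51 at Day 21, in replicates 1 and 2. The replicates stood far apart at Day 7 and close together afterwards. The Day 21 mean was −2.35 ± 0.23 (SD, n = 2; SE 0.17), or 5.10-fold lower, with a limma adjusted p of 0.0107 and rank 59 of 1223. At Day 7 COPA missed the threshold (−0.95 ± 0.68, SD, n = 2; limma adjusted p 0.0531), which it passed with the block (0.0371). The Day 21 call was lost with the median over guides (limma adjusted p 0.0597) and kept when libraries were centred on all guides (0.0483).

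Together these 2 genes held 339 guides, 29.4% of the member guides. At Day 21, 188 of the 1155 member guides (16.3%) were called lower by limma, against 11.1% of all guides, and 144 of the 188 (76.6%) targeted COPA or COPB2. With the block 285 member guides were called, and 19.3% of all guides. The share called was 42.5% of the guides of these 2 genes and 5.39% of the 816 guides of the other 21 genes, so the higher share among the members as a whole comes from the COPI pair. At Day 14 the member guides called lower were 167 (14.5%, against 7.96% of all guides). At Day 7 they were 86 (7.45%, against 2.10% of all guides), of which 84 targeted COPA or COPB2, and all 86 were also called at Day 21. Of the 188 guides, 183 were at −1 or lower in both replicates.

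Set against the non-targeting guides of the same library, the median COPA or COPB2 guide was lower by 0.56 on average at Day 7 (−0.26 in replicate 1 and −0.86 in replicate 2). At Day 14 the difference was −1.46 in both replicates, and at Day 21 it was −1.72 in both (SD 0.0043, n = 2). The other 21 genes had a difference of −0.017 ± 0.039 (SD, n = 2) at Day 7, which did not exceed the replicate spread. Theirs was −0.18 ± 0.049 at Day 14 and −0.19 ± 0.027 at Day 21, beyond that spread. Guides of all other genes outside the control set had −0.23 ± 0.036 at Day 14 and −0.31 ± 0.015 at Day 21. The 21 genes were left after the 2 lowest member genes were set aside, whereas the other genes kept their lowest. Their smaller difference follows in part from that choice, so no conclusion is drawn from it. All 23 genes pooled gave −0.12 ± 0.11 at Day 7, −0.37 ± 0.0073 at Day 14 and −0.47 ± 0.018 at Day 21 (SD, n = 2). No p-value is given for these class differences, because with 2 paired values the two-sided exact sign-flip p is at least 0.5. At Day 21, 61.1% ± 2.5 of the COPI guides and 27.8% ± 2.5 of the other member guides were at −1 or lower (SD, n = 2). This compares with 16.8% ± 0.59 of the non-targeting guides and 21.6% ± 1.9 of the control guides. Among guides of all other genes outside the control set it was 32.5% ± 1.6.

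Each junction carried at most 8 guides, which share a target and so are not independent. Junction means were therefore tested too, for the 151 of 156 member junctions with at least 3 guides. At Day 21, 52 of them (34.4%) were called lower, against 25.3% of all 6401 junctions tested (limma, Benjamini-Hochberg adjusted p under 0.05). All 52 were below 0 in both replicates, 38 were at −1 or lower in both, and 43 had also been called at Day 14. Without COPA and COPB2 the count was 17 of 106 (16.0%). The Day 21 fit gave every junction the same SE of 0.36, so there a call depends on the mean alone, and the highest mean called was −0.89. At Day 14 the count was again 52 of 151, against 21.9% of all junctions, and at Day 7 it was 4 (2.65%, against 0.625%), 3 in COPB2 and 1 in COPA.

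COPB2 had 17 junctions, all listed as common, the table's word for a junction category whose definition was not given. At Day 21, 13 of the 17 were called lower and 7 had means below −3. Junctions are numbered here from the 5′ end among those of the gene that carried guides, so the numbers need not match its exon numbering. Those 7 were junction 2 at −3.57, 3 at −4.57, 9 at −3.93, 12 at −3.64, 13 at −4.35, 16 at −3.96 and 17 at −3.79. The other called junctions were 4 at −2.78, 5 at −2.45, 6 at −0.89, 7 at −1.98, 8 at −2.13 and 10 at −1.64. Depleted and undepleted junctions lay side by side along the transcript. Junction 15 (139359178 to 139359269) was the highest, at 0.72 and 0.40 in replicates 1 and 2, while the next one downstream, junction 16 (139358812 to 139358997), stood at −3.38 and −4.54. Junctions 1, 11 and 14 were not called either, with means of −0.43, −0.84 and 0.02.

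The lowest COPB2 junction was number 3, chr3:139378189-139379046 on the minus strand (hg38), with 8 guides. Its mean was −2.73 and −3.36 at Day 7, −4.18 and −4.95 at Day 14, and −4.63 and −4.51 at Day 21. It was already lower at Day 7 (limma adjusted p 0.0155). Of its 8 guides, 7 were called lower at Day 21, with means from −6.56 to −2.93. The guide numbered 2 had implied numbers of 59 and 144 at Day 0 and of 1 in both replicates at Day 7 and Day 21. Its mean was −6.85 at Day 7 and −6.56 ± 1.05 at Day 21 (SD, n = 2; limma adjusted p 3.87e-07). No lower value could be seen on either day. At Day 14 it was at −3.88 in replicate 1 and −7.57 in replicate 2. Guide 8 of the same junction was the exception, at −0.24 and −2.20 (limma adjusted p 0.536).

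Spread within a junction was large elsewhere too. The lowest COPB2 guide of all, guide 5 of the 7 on junction 9 (139369367 to 139369455), had values of −6.69 and −7.15 at Day 21, from implied numbers of 108 and 130 down to 1 in both replicates. Guide 4 of the same junction stood at 1.27 and −1.26, a mean of 0.01 with replicates on opposite sides of 0. Of the variance between COPB2 guides at Day 21, 36.8% lay between junctions in replicate 1 and 31.5% in replicate 2, and the rest lay between guides of the same junction.

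COPA had 29 junctions, of which 28 were tested, and 22 were called lower at Day 21. The lowest was junction 8, chr1:160314125-160323430 on the minus strand (hg38), with means of −1.24 and −2.80 at Day 7, −4.23 and −4.36 at Day 14, and −4.33 and −5.10 at Day 21. Its immediate neighbour, junction 9 (160313167 to 160313989), had values of 0.18 and −0.05 at Day 21 and was not called at any day. Means below −3 were found at 11 junctions, numbers 7, 8, 10, 11, 12, 13, 15, 20, 22, 27 and 29. Apart from junction 8 at −4.71, the lowest of these were junction 20 at −4.59, 15 at −4.56 and 11 at −4.34. Followed along the transcript, the other 7 were junction 7 at −3.09, 10 at −3.25, 12 at −3.24, 13 at −3.62, 22 at −3.66, 27 at −3.09 and 29 at −3.56.

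A further 11 COPA junctions were called with smaller losses. Their means were −2.50 at junction 1, −2.05 at 2, −2.12 at 5, −1.09 at 14, −2.47 at 16, −1.21 at 17, −1.09 at 18, −1.38 at 19, −1.81 at 21, −1.48 at 24 and −2.86 at 26. The 6 tested junctions that were not called were junction 3 at −0.44, 4 at −0.01, 6 at 0.33, 9 at 0.07, 23 at −0.85 and 25 at −0.75. Junctions 4 and 6 had 3 guides each, and junction 9 had 8. Junction 28 carried 1 guide and was not tested.

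The junction pattern of both genes recurred between replicates. Across junctions, the Day 21 means of the replicates had a Pearson's r of 0.90 for COPA and 0.91 for COPB2 (28 and 17 junctions, sharing the 2 libraries). Position along the transcript gave no such order, with a Spearman's rho of −0.14 in COPA and −0.03 in COPB2 between the junction's place from the 5′ end and its mean. These are descriptions over junctions, which are not replicates.

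On the lowest COPA junction, 7 of the 8 guides were called lower at Day 21. Guide 3 stood at −6.04 and −6.11 (limma adjusted p 9.82e-07), from implied numbers of 69 and 126 to 1 and 2. Guide 6 reached −1.64 and −1.45 (limma adjusted p 0.330). The lowest COPA guide, guide 3 of the 8 on junction 20 (160295859 to 160296060), was at −7.20 and −8.45 at Day 21. It had an implied number of 1 in both replicates, from 154 and 320 at Day 0. In replicate 2 it was already at −8.60 at Day 7, against −3.48 in replicate 1. Guide 6 of that junction stood at 0.96 and −1.58, so the replicates disagreed in sign.

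Targeting and translocation into the endoplasmic reticulum was covered by 5 genes, and SEC61A1 alone was called lower at Day 21. SEC61A1 encodes the channel-forming subunit of the SEC61 translocon. Its mean was −0.25 and −0.53 at Day 7, −1.09 and −2.18 at Day 14, and −1.35 and −1.78 at Day 21. All libraries were below 0, and the replicates stood farthest apart at Day 14. The Day 21 mean was −1.56 ± 0.30 (SD, n = 2; SE 0.18), or 2.96-fold lower, with a limma adjusted p of 0.0189. The call was lost when libraries were centred on all guides (limma adjusted p 0.0708) and with the median over guides (0.100).

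SEC61A1 was measured at 1 junction, chr3:128060211-128060507 on the plus strand (hg38), with 8 guides. Of these, 3 were called lower at Day 21. Guide 4 was at −3.98 and −3.90 (limma adjusted p 0.000516), guide 8 at −3.15 and −4.70 (0.000632) and guide 7 at −1.91 and −3.16 (0.0378). Guides 2 and 6 were above 0 on average, at 0.56 and 0.66, and the other 3 lay between −1.84 and −0.72. The gene's value thus comes from a single junction. The median over its guides was −1.52 at Day 21, close to the mean, and 5 of the 8 guides were below 0 in both replicates.

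The remaining genes of this group were not called on any day without the block. SRP9, a subunit of the Alu domain of the signal recognition particle, had −1.25 and −0.38 at Day 21 (mean −0.81, limma adjusted p 0.132). SEC61G, the small gamma subunit of the channel, had −1.24 and −0.27 (mean −0.76, adjusted p 0.174). Both had 8 guides on 1 junction, and for both the replicates differed by more than the size of the replicate 2 value. With the block SRP9 was called at Day 14 (limma adjusted p 0.00563) and Day 21 (0.00413), and SEC61G at Day 21 (0.0196). SEC61B, the beta subunit, had the highest mean of the member genes at Day 21, with 0.18 in replicate 1 and −0.29 in replicate 2 (mean −0.05, limma adjusted p 0.871). Its replicates lay on either side of 0.

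SRP54, the GTPase that binds signal sequences, was measured far more broadly, with 112 guides on 15 junctions of chromosome 14. Its gene mean was 0.05 and −0.05 at Day 7, −0.11 and −0.15 at Day 14, and −0.06 and −0.20 at Day 21 (mean −0.13 ± 0.10, SD, n = 2; limma adjusted p 0.582). None of its 14 tested junctions was called at Day 21 (limma, 0 at an unadjusted p under 0.05), and none of its guides was (3 at an unadjusted p under 0.05). Its junction means ran from −0.64 to 0.34. Over its guides the replicates had an r of 0.04 at Day 21, against 0.71 for COPA and 0.71 for COPB2.

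Among the 4 V-ATPase genes, both measured subunits of the V1 sector were lower at Day 21, and the V0 subunit and the accessory protein were not called without the block. ATP6V1B2 encodes the B2 subunit, which with subunit A forms the catalytic head. It had 95 guides. Its mean was 0.02 and −0.18 at Day 7, −0.93 and −1.05 at Day 14, and −0.90 and −1.22 at Day 21. Near 0 in both replicates at Day 7, it was at about its final level by Day 14. The Day 21 mean was −1.06 ± 0.22 (SD, n = 2; SE 0.16), or 2.08-fold lower, with a limma adjusted p of 0.0316.

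That value rests in large part on 1 of its 13 junctions. Junction 7, chr8:20211753-20212101 on the plus strand (hg38), had means of −0.41 and −0.80 at Day 7, −3.74 and −5.61 at Day 14, and −4.57 and −5.26 at Day 21, the lowest of all member junctions. Of its 8 guides, 7 were called lower at Day 21, and guide 3 was not (−2.09 and −1.06, limma adjusted p 0.318). Guide 6 was at −6.95 and −7.05, from implied numbers of 129 and 121 to 1 in both replicates. The median of the 13 junction means was −0.61. Without junction 7, a choice made after seeing the data, the gene mean was −0.70 and the call was lost (limma adjusted p 0.0663). It was also lost when libraries were centred on the non-targeting guides (0.0534), on all guides, or with the median over guides.

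Of the other ATP6V1B2 junctions, 4 were called lower, at −1.85 for junction 3, −1.37 for junction 12, −1.05 for junction 1 and −1.04 for junction 13. The highest was junction 6 (20211316 to 20211651), with −0.11 and 0.05 over 3 guides. Junction 8, just downstream of the lowest, stood at −0.74 and −0.48 and was not called. Replicate means across the 13 junctions had a Pearson's r of 0.91, as a description. All 13 were listed as single_unique.

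ATP6V1H encodes the H subunit, which links V1 to V0 activity. It had 25 guides on 4 junctions. Its mean was −0.11 and 0.04 at Day 7, −0.70 and −0.51 at Day 14, and −1.0 and −0.73 at Day 21. Both replicates were near 0 at Day 7 and below 0 afterwards. The Day 21 mean was −0.86 ± 0.19 (SD, n = 2; SE 0.16), or 1.82-fold lower, with a limma adjusted p of 0.0444. The call was lost with centring on the non-targeting guides (0.0592), with no minimum number of guides (0.0501) and when guides with an implied number under 50 at Day 0 were left out (0.0707), as well as with centring on all guides and with the median.

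At junction level, 2 of the 3 tested ATP6V1H junctions were called, junction 4 at −1.31 and −0.81 and junction 2 at −1.27 and −0.67. Junction 3 was not called, at −0.49 and −0.91. The guides of junction 4 (53769743 to 53771988) varied widely. Guide 4 was at −3.69 and −5.70 (limma adjusted p 6.69e-05), whereas guide 1 was at 1.16 in replicate 1 and −5.34 in replicate 2, with implied numbers of 37 to 79 and of 74 to 2.

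The V0 stalk subunit ATP6V0D1 had −0.38 and −0.28 at Day 21 over 16 guides (mean −0.33, limma adjusted p 0.209 without and 0.0272 with the block). ATP6AP1, an accessory protein of the pump, had 71 guides on 9 junctions, with gene means of 0.01 and 0.05 at Day 7, −0.04 and −0.23 at Day 14, and −0.04 and −0.21 at Day 21 (mean −0.12 ± 0.12, SD, n = 2; limma adjusted p 0.612). One end of its range was junction 8 (154435186 to 154435273), at −0.60 and −1.18, the only ATP6AP1 junction called (limma adjusted p 0.0487). The other was junction 7, at 0.34 and 0.21. ATP6AP1 also held the single member guide called higher at Day 21, against 0.218% of all guides. That guide, number 7 on the junction from 154432971 to 154433634, was at 3.91 and 1.40 (limma adjusted p 0.0328). Implied numbers of 38 and 70 at Day 0 had become 548 and 202, and its values at Day 14 had been 0.82 and 1.104.

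Tethers, SNAREs and their regulators made up 7 genes. Of these, COG4 and TRAPPC8 were lower at Day 14, and at Day 21 limma called 0 of the 7 (3 at an unadjusted p under 0.05). COG4, a subunit of the COG tether that holds retrograde vesicles at the Golgi, had 16 guides on 2 junctions of chromosome 16. Its mean was −0.04 and 0.15 at Day 7, −1.09 and −0.96 at Day 14, and −1.78 and −0.72 at Day 21. The replicates were close at Day 14 and far apart at Day 21. The Day 14 mean was −1.02 ± 0.09 (SD, n = 2), with a limma adjusted p of 0.0124. The Day 21 mean was −1.25 ± 0.75 (SD, n = 2; SE 0.32), with a limma adjusted p of 0.0797 without the block. COG4 passed the threshold with shared spread alone (limma adjusted p 0.0120) and with the replicate block added (0.00251).

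Both COG4 junctions were called lower at Day 21 in the junction test, whose spread was shared by all junctions. Junction 2 (70517740 to 70519648) had −2.03 and −0.91, and junction 1 (70519731 to 70523372) had −1.53 and −0.54. Their guides differed widely. Guides 1 and 2 of junction 2 were at −6.81 and −3.22, and at −6.61 and −3.74, and guide 4 of junction 1 was at −5.19 and −6.42. Those were the 3 COG4 guides called lower. Guides 3, 4 and 7 of junction 2 were above 0 in both replicates at Day 21. The 2 called guides on junction 2 were at 0.11 and −0.66 on average at Day 7, so their loss came after that day.

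TRAPPC8 belongs to the TRAPPIII complex, an activator of RAB1 on early secretory and autophagic membranes. It had 65 guides on 9 junctions of chromosome 18. Its mean was −0.0015 and −0.13 at Day 7, −0.68 and −0.66 at Day 14, and −0.58 and −0.69 at Day 21. The replicates lay close together at both later days. The Day 14 mean was −0.67 ± 0.01 (SD, n = 2), with a limma adjusted p of 0.0337, and the Day 21 mean was −0.63 ± 0.08 (SD, n = 2; SE 0.14), with 0.0665. TRAPPC8 was called at Day 21 too with shared spread alone (limma adjusted p 0.00427) and with the replicate block added (0.00274).

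In TRAPPC8, 3 of the 9 junctions were called lower at Day 21, and the other 6 had means between −0.75 and 0.29. The lowest, junction 6 (31907610 to 31908302), was at −0.88 and −2.96. Junction 9 was at −2.20 and −1.19, and junction 1 was at −0.81 and −1.73. All 8 guides of junction 6 were lower in replicate 2 than in replicate 1, by 0.68 to 4.72, and guides 6 and 7 were above 0 in replicate 1. Guide 6 was at 3.12 in replicate 1, with an implied number of 149 at Day 0 and 1243 at Day 21. In replicate 2 it was at −1.60, with 188 at Day 0 and 68 at Day 21. Guide 7 was at 2.35 and −0.96. On the same junction guide 4 was at −4.33 and −6.05 (limma adjusted p 1.43e-05).

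The other 5 genes of this group were not called on any day without the block. USO1, the coiled-coil tether p115, had 118 guides on 16 junctions and a Day 21 mean of −0.24 (−0.44 and −0.04, limma adjusted p 0.420). Its junction 12 (75800469 to 75800617) was the exception, at −1.66 and −1.86, and was the only USO1 junction called. The highest USO1 junction was number 2, at 0.35 and 0.41. YKT6, a lipid-anchored SNARE, was the highest gene of the group, with 0.09 and 0.03 at Day 7, −0.10 and −0.19 at Day 14, and −0.13 and −0.15 at Day 21 (mean −0.14 ± 0.02, SD, n = 2; limma adjusted p 0.549). NAPA, or alpha-SNAP, had a Day 21 mean of −0.26, TRAPPC4 of −0.49 and TRAPPC1 of −0.46. The TRAPPC1 replicates stood at 0.13 and −1.04. With the block TRAPPC4 was called at Day 21 (limma adjusted p 0.0146).

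Endolysosomal sorting was represented by VPS28 of ESCRT-I, VPS25 of ESCRT-II, VPS4A and VPS13D, a lipid transfer protein of organelle contact sites. None of the 4 was called at Day 21 (limma, 1 at an unadjusted p under 0.05), and 1 of their 153 guides was called lower. VPS28 had the lowest mean of these, −0.55 (−0.77 and −0.34, limma adjusted p 0.130), and VPS4A had −0.44. With the block both were called, VPS28 at Day 14 (limma adjusted p 0.0240) and Day 21 (0.0191) and VPS4A at Day 14 (0.00815) and Day 21 (0.0224). VPS25 had −0.25 over 4 junctions that ran from −1.005 at junction 1 (−0.95 and −1.06), which was called, to 0.72 at junction 3 (0.58 and 0.87). VPS28 likewise had 1 called junction, number 4, at −1.86 and −0.62, and its highest junction was number 1, at −0.32 and 0.36.

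VPS13D had 73 guides on 11 junctions. Its gene means were −0.09 and −0.06 at Day 7, −0.30 and −0.07 at Day 14, and −0.20 and 0.06 at Day 21 (mean −0.07 ± 0.19, SD, n = 2; limma adjusted p 0.796). The replicates fell on either side of 0 at Day 21. None of its 9 tested junctions was called at Day 21 (limma, 0 at an unadjusted p under 0.05).

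VPS72 had 7 guides on 1 junction and a Day 21 mean of −0.80 (−0.59 and −1.01, limma adjusted p 0.0665). All 6 libraries were below 0. VPS72 was not called on any day without the block and was called with it at Day 14 (limma adjusted p 0.00150) and Day 21 (0.00123). The 16 genes never called at Day 7, 14 or 21 without the block held 607 guides. Of these guides 11 (1.81%) were called lower at Day 21, against 11.1% of all guides. Because the genes were picked for lacking a call on these same values, a low share follows in part from that choice. The means of these 16 genes at Day 21 ran from −0.81 for SRP9 to −0.05 for SEC61B.

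The change between Day 7 and Day 21 was tested directly, within each replicate, so that Day 0 cancels. The Day 21 value was below the Day 7 value in 6 of the 23 genes, 26.1% against 23.5% of all genes tested (limma, Benjamini-Hochberg adjusted p under 0.05). COPA had the largest further loss, −1.72 in replicate 1 and −1.08 in replicate 2 (mean −1.40 ± 0.45, SD, n = 2; limma adjusted p 0.000846). COG4 followed with −1.74 and −0.87 (mean −1.30, limma adjusted p 0.00209). SEC61A1 had −1.10 and −1.24, a mean of −1.17 with close replicates (limma adjusted p 0.00164). COPB2 had −1.26 and −0.97 (mean −1.11, limma adjusted p 0.00246), ATP6V1B2 had −0.92 and −1.04 (mean −0.98, limma adjusted p 0.00489), and ATP6V1H had −0.89 and −0.77 (mean −0.83, limma adjusted p 0.0131). ATP6V1B2, ATP6V1H and COG4 had Day 7 means between −0.08 and 0.05, so nearly all of their loss came later, whereas COPB2 had a Day 7 mean of −1.31. Centring on all guides left 2 of the 6 calls, and the median over guides left 0 (limma, 5 at an unadjusted p under 0.05).

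Some members could be compared with their own labels. The table typed 17 of the genes as essential under Cas13 and 6 as not essential, and all 5 genes lower at Day 21 were among the 17. The criterion was not given and may have used these same fold changes, so the agreement is not independent. Across the 23 genes the deposited GeCKO score (−1.51 to −0.859 among them) had a Pearson's r of −0.04 and a Spearman's rho of 0.06 with the Day 21 mean, as a description over genes that share the 2 libraries. VPS28, with the lowest score, was not called, and SEC61A1, with a score of −0.907, was. SRP54 and VPS13D alone had junctions in 2 categories. For SRP54 the mean over guides at Day 21 was −0.15 ± 0.02 at common and −0.09 ± 0.31 at partial_unique junctions (SD, n = 2). For VPS13D it was 0.23 ± 0.01 at 2 common and −0.16 ± 0.24 at 9 partial_unique junctions.

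A list of 104 other secretory, ER and endolysosomal genes was set beside the members. Of these, 24 were in the table with at least 3 guides. At Day 21, 3 of the 24 (12.5%) were lower by limma, against 20.8% of all genes tested and 28.2% of those outside the control set. The median of the 24 gene means was −0.31, against −0.28 and −0.43. AP2M1, the medium subunit of the clathrin adaptor AP-2, had −2.16 and −2.34 (mean −2.25, limma adjusted p 0.0107). UNC50, a Golgi membrane protein, had −1.41 and −0.91 (mean −1.16, limma adjusted p 0.0375). HSPA5, the ER chaperone BiP, had −0.83 and −0.71 (mean −0.77, limma adjusted p 0.0468). The same 3 genes were lower at Day 14, and limma called 0 at Day 7.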

How the data were processed

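The authors deposited log2 fold changes per guide, day and replicate against Day 0, per the file headers, and a GeCKO gene score whose derivation was not given in the sources used here. The submitters' processing notes name cutadapt 3.5, Bowtie 1.1.2 and hg38. Read counts, library scaling and guide sequences were not used here. Groups and replicate numbers came from the labels, and 0 per-sample columns were left unmapped. All 156 member junctions lay inside the RefSeq span (GRCh38.p14) of their gene.

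Each day was fitted alone with limma 3.58.1 (R 4.3.3). Earlier simulation on these data had found a fit over all days too liberal at Day 21. The mean of 2 replicates was tested against 0, without a replicate block, over all guides, and over all junctions or genes with at least 3 guides, with calls made under 0.05 after Benjamini-Hochberg adjustment. The fit was also run on simulated independent normal values, drawn with the spread that limma had estimated. These had no lowest implied number and no shared Day 0 library, so that run cannot tell how either affects the calls. In every library 100% of values matched log2 ratios of whole numbers (denominators up to 2000) after a constant was removed, which gave the implied numbers. Guides of a junction are numbered in the order of the deposited table.

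The replicate number pairs the libraries, since all days of a replicate share its Day 0 library. Deviations from the day means correlated across member guides at 0.46 between Days 7 and 14, 0.38 between Days 7 and 21 and 0.57 between Days 14 and 21. Members, gene lists and tests were chosen with earlier results of these data known. Named were genes called on any day and the 5 lowest and 5 highest at Day 21, called junctions, and the lowest and highest junction of a gene with a called one. Alternatives changed centring, the gene summary, guide minimum, moderation, shared spread, replicate block and left-out replicates.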

Additional observations from a re-analysis of the deposited data

Results flagged for a closer look

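These genes passed the test of the difference between Day 21 and Day 7 itself (limma, Benjamini-Hochberg adjusted p under 0.05), with both replicates lower at Day 21. The difference was −1.40 for COPA, −1.30 for COG4, −1.17 for SEC61A1, −1.11 for COPB2, −0.98 for ATP6V1B2 and −0.83 for ATP6V1H. Groups of 2 libraries were too small to be searched for outlying samples.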

How the results depend on the processing

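The replicate block, with all days sharing the spread, gave 2 lower member genes on Day 7, 11 on Day 14 and 14 on Day 21. It gave 285 lower guides on Day 21. With each day fitted alone the counts were 1, 7, 5 and 188. The 5 genes called at Day 21 without the block were all called with it. At Day 7, 0 genes were called by limma with the days sharing the spread without a block (2 at an unadjusted p under 0.05), centred on all guides (3 unadjusted), with robust moderation (4 unadjusted), without guides whose implied number was under 50 at Day 0 (5 unadjusted), or without either replicate (0 to 0), and 2 with at least 10 guides per gene. At Day 14 the count was 4 centred on all guides, 2 with the median over guides, 4 without each gene's lowest junction, and 4 to 4 without either replicate. At Day 21 it was 11 with shared spread, 8 with at least 10 guides, 1 centred on all guides, 3 centred on non-targeting guides, 0 with the median (limma, 3 unadjusted) and 9 to 10 without either replicate. For Day 21 against Day 7 it was 2 centred on all guides and 0 with the median (limma, 5 unadjusted). The counts over all genes tested moved too. At Day 21 they were 254 with each day fitted alone, 477 with shared spread and 373 with at least 10 guides. They were 62 centred on all guides, 195 centred on non-targeting guides and 25 with the median. With at least 10 guides per gene, 17 member genes were tested. In all counts without a replicate, only its library of the tested day was left out and the spread was shared over days. Their counterpart with all libraries is thus the shared-spread fit. Without COPA and COPB2, Day 21 kept 44 guides and 17 junctions, and the difference to non-targeting guides was −0.18 at Day 14 and −0.19 at Day 21. The next values are for all member guides, COPA and COPB2 included. Means over guides in place of medians made their difference to non-targeting guides −0.32 on Day 7, −0.87 on Day 14 and −0.93 on Day 21. With the control guides as reference it was −0.33 on Day 14. Without either replicate the difference to non-targeting guides ran from −0.20 to −0.04 at Day 7. At Day 14 it ran from −0.37 to −0.36 and at Day 21 from −0.48 to −0.46. Centring on all guides added 0.33 and 0.28 to the Day 21 values of replicates 1 and 2, and Day 21 means turned positive for YKT6 (0.168), SRP54 (0.175), ATP6AP1 (0.184), VPS13D (0.237) and SEC61B (0.254). YKT6 was 0.0751 without its lowest junction, VPS13D ran from −0.201 to 0.061 and SEC61B from −0.286 to 0.181 without either replicate. None of these 5 means passed the threshold under any alternative. The cause of these changes was not tested. The filters on implied Day 0 numbers and the omission of junctions or of the COPI genes were added after seeing the data. Loss beyond an implied number of 1 could not be measured.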
